A study of Caenorhabditis elegans with 11 samples.

Results

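Loss of atfs-1 in animals that already carried the nhr-180 mutation was measured by comparing 3 libraries of worms with both atfs-1(null) and nhr-180(cmh19), called the double mutant, with 2 libraries of nhr-180(cmh19). These are 5 of the 11 libraries of the series, and they were chosen by their column names. The other 6 are 3 libraries of atfs-1(null) and 3 of wildtype, and they share in the estimate of the spread and give the effect of losing atfs-1 without the nhr-180 mutation. Of the 46926 genes in the count table, 16013 passed the filter on low counts and were tested. All animals were Caenorhabditis elegans harvested at the fourth larval stage (L4) and grown on the E. coli strain HT115. RNA of whole worms was extracted with Trizol and sequenced as stranded libraries from both ends. Each library therefore mixes all tissues, and fewer cells of a type cannot be told apart from less RNA per cell. Both compared groups carry nhr-180(cmh19), and they differ by atfs-1(null). The labels call the libraries biological replicates but name no separate cultures, so p-values measure the spread between these libraries. They number the nhr-180 libraries 2 and 3, and a first nhr-180 replicate was not analysed here. The sources used here do not say what kind of lesion each allele is.

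ATFS-1 is a basic leucine zipper transcription factor with signals for both the mitochondrion and the nucleus. In healthy mitochondria it is imported and degraded, and when import falters it enters the nucleus and turns on genes of the mitochondrial unfolded protein response, among them the mitochondrial chaperone genes hsp-6 and hsp-60. NHR-180 belongs to the nuclear hormone receptors, a family of ligand-regulated transcription factors that is much enlarged in nematodes. The title of the series concerns cytosolic translation and mitochondrial dysfunction, so genes of cytosolic protein folding and of translation are described beside the mitochondrial ones.

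Levels of the targeted genes went with the labels. The gene atfs-1 (WBGene00013878, chromosome V from 14193663 to 14197700, build WBcel235) was read at 47.4 and 40.8 CPM in nhr-180 replicates 2 and 3 and at 2.55, 3.13 and 3.57 CPM in double mutant replicates 1, 2 and 3. CPM is the count of a gene relative to the total of its library, after scaling for library composition (TMM), and values are given in this order of replicates throughout. The fall of atfs-1 was -3.84 ± 0.54 as log2 fold change ± SE, with an adjusted p of 0.0019 by edgeR's quasi-likelihood test. Transcript of nhr-180 was scarce in both groups, at 0.268 and 0.407 and 0.563, 0.495 and 0.423 CPM, and was not called (0.55 ± 0.34, adjusted p = 0.378), while wildtype libraries held 3.05, 4.02 and 4.05 CPM. Total counts of the 5 libraries lay between 21128015 and 22921602. The log2 CPM of the libraries, compared across genes, which are not replicates, correlated at 0.979 to 0.992 within a group and at 0.944 to 0.96 between the groups. Levels in CPM are not corrected for gene length and are compared between libraries, not between genes.

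Loss of atfs-1 in nhr-180 animals was accompanied by higher levels of 15 of 24 cytosolic heat shock genes, 23 of 25 oocyte genes and 20 of 33 DNA replication genes, and by lower levels of 57 of 131 col collagen genes, 18 of 68 hedgehog-related genes and 6 of 14 heme and iron genes. Of 16013 genes, 2961 (18.5%) were called at an adjusted p under 0.05, with 1647 (10.3%) higher and 1314 (8.21%) lower in the double mutant. Protein-coding genes made up 2884 of them. The change was at least 2-fold in 705 of the genes that rose and 785 of those that fell, and at least 4-fold in 255 and 150. In all 1647 and 1314 called genes the libraries of the groups did not overlap, as was also so for 28.2% of all tested genes with the double mutant above and 26.7% with the double mutant below. Where lack of overlap is given below for a called gene, it thus describes the levels and adds no support to the call. The number of calls rests on both nhr-180 libraries. Without nhr-180 replicate 2, 434 genes were called higher and 409 lower, and without nhr-180 replicate 3 the numbers were 186 and 251. Without double mutant replicates 1, 2 and 3 they were 1081 and 830, 918 and 901, and 960 and 793. Whichever of the 5 libraries was left out, 364 genes kept their call, 151 of them higher and 213 lower. When 1 nhr-180 library is left, it is assumed to vary like the libraries of the other groups. The libraries of the other genotypes set the spread as well, and without atfs-1(null) replicate 1 the numbers were 2280 and 2052. A call said below to be lost had an adjusted p of 0.05 or more in that fit. On the deposited TPM values, where the median gene moved by 0.11 (log2) against -0.01 on the counts, limma called 2348 genes higher and 929 lower.

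**Figure D1:**
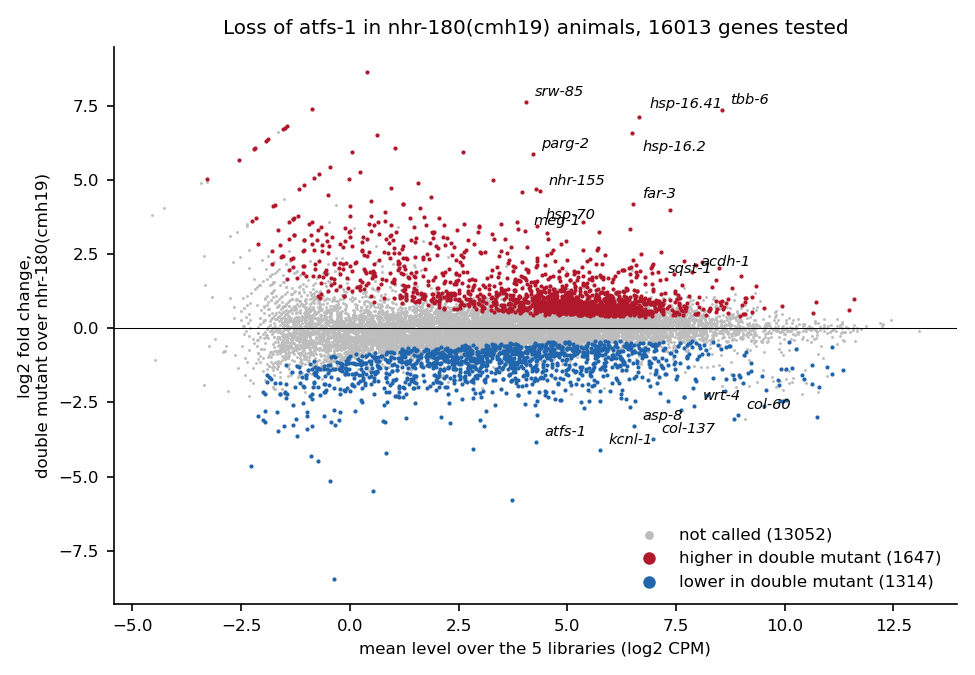
Each point is 1 of 16013 tested genes, with its mean level over the 5 libraries (log2 CPM, x axis) and its log2 fold change in the double mutant over nhr-180(cmh19) (y axis). The 1647 genes called higher are red and the 1314 called lower are blue; tbb-6, hsp-16.41 and hsp-16.2 stand near the top, at 7.34, 7.13 and 6.59.

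Among the genes that rose were those of the cytosolic heat shock proteins, chaperones that hold or refold damaged proteins outside the mitochondrion. Of 24 tested members, 15 rose (62.5%, against 10.3% of all tested genes) and 9 were not called. The median of the 24 was 0.89 (log2) against -0.01 over all genes. The small heat shock protein genes hsp-16.2 (WBGene00002016, chromosome V from 1804334 to 1804957) and hsp-16.41 (WBGene00002018, chromosome V from 1805178 to 1805875) are neighbours that are read in opposite directions. The level of hsp-16.2 was 1.43 and 1.63 CPM in the nhr-180 libraries and 178, 158 and 107 CPM in the double mutant (6.59 ± 0.41, adjusted p = 1.55e-05). For hsp-16.41 the levels were 1.03 and 1.36 against 209, 178 and 115.4 CPM (7.13 ± 0.41, adjusted p = 1.31e-05). In both genes every double mutant library lay far above both nhr-180 libraries, with double mutant replicate 3 the lowest of its group. The inducible Hsp70 gene hsp-70 went from 2.55 and 3.08 to 34.7, 29.1 and 28.8 CPM (3.46 ± 0.21, adjusted p = 1.4e-05), again without overlap. The related Hsp70 genes F44E5.4 and F44E5.5 rose from low levels, with log2 fold changes of 3.47 ± 0.48 and 2.37 ± 0.44. Some hsp-16 genes, such as hsp-16.49, have near-identical copies, so the split of reads between such copies is uncertain. The genes hsp-16.1 and hsp-16.11 did not pass the filter. In hsp-16.49 the nhr-180 libraries held no count and the double mutant libraries a mean of 0.436 CPM, which is at least 3.24-fold higher against a floor of 3 counts per library. The median of the group is 0.89 with that gene at its bound as well. The calls of hsp-16.49 and F44E5.5 were lost when either nhr-180 library was left out.

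Abundant chaperone genes that every cell uses moved less, in the same direction. The Hsp90 gene hsp-90 stood at 1947 and 1912 CPM in the nhr-180 libraries and at 4021, 3583 and 3958 CPM in the double mutant (1.00 ± 0.14, adjusted p = 0.00192). The constitutive Hsp70 gene hsp-1 went from 2041 and 2242 to 3526, 2734 and 3644 CPM (0.62 ± 0.17, adjusted p = 0.0269). In each of these genes the lowest double mutant library lay above the highest nhr-180 library. The small heat shock protein gene hsp-43 rose by 1.32 ± 0.13 and the small heat shock protein gene hsp-17 by 1.00 ± 0.25. The heat shock factor gene hsf-1, which encodes the transcription factor that turns on these chaperones, rose from 33.8 and 23.9 to 48.2, 45.5 and 54.2 CPM (0.77 ± 0.20, adjusted p = 0.0231). The co-chaperone genes stip-1, dnj-12 and hsp-110 had log2 fold changes of 0.57 ± 0.16, 0.62 ± 0.16 and 0.73 ± 0.22. Summed over the group, the level was 5372 and 5545 CPM in the nhr-180 libraries and 10009, 8599 and 10094 CPM in the double mutant. Of the group, 8 members were called without nhr-180 replicate 2 and 6 without nhr-180 replicate 3. The genes hsp-16.2, hsp-16.41, hsp-70, F44E5.4, hsp-43 and hsp-90 kept their call whichever of the 5 libraries was left out.

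**Figure D2:**
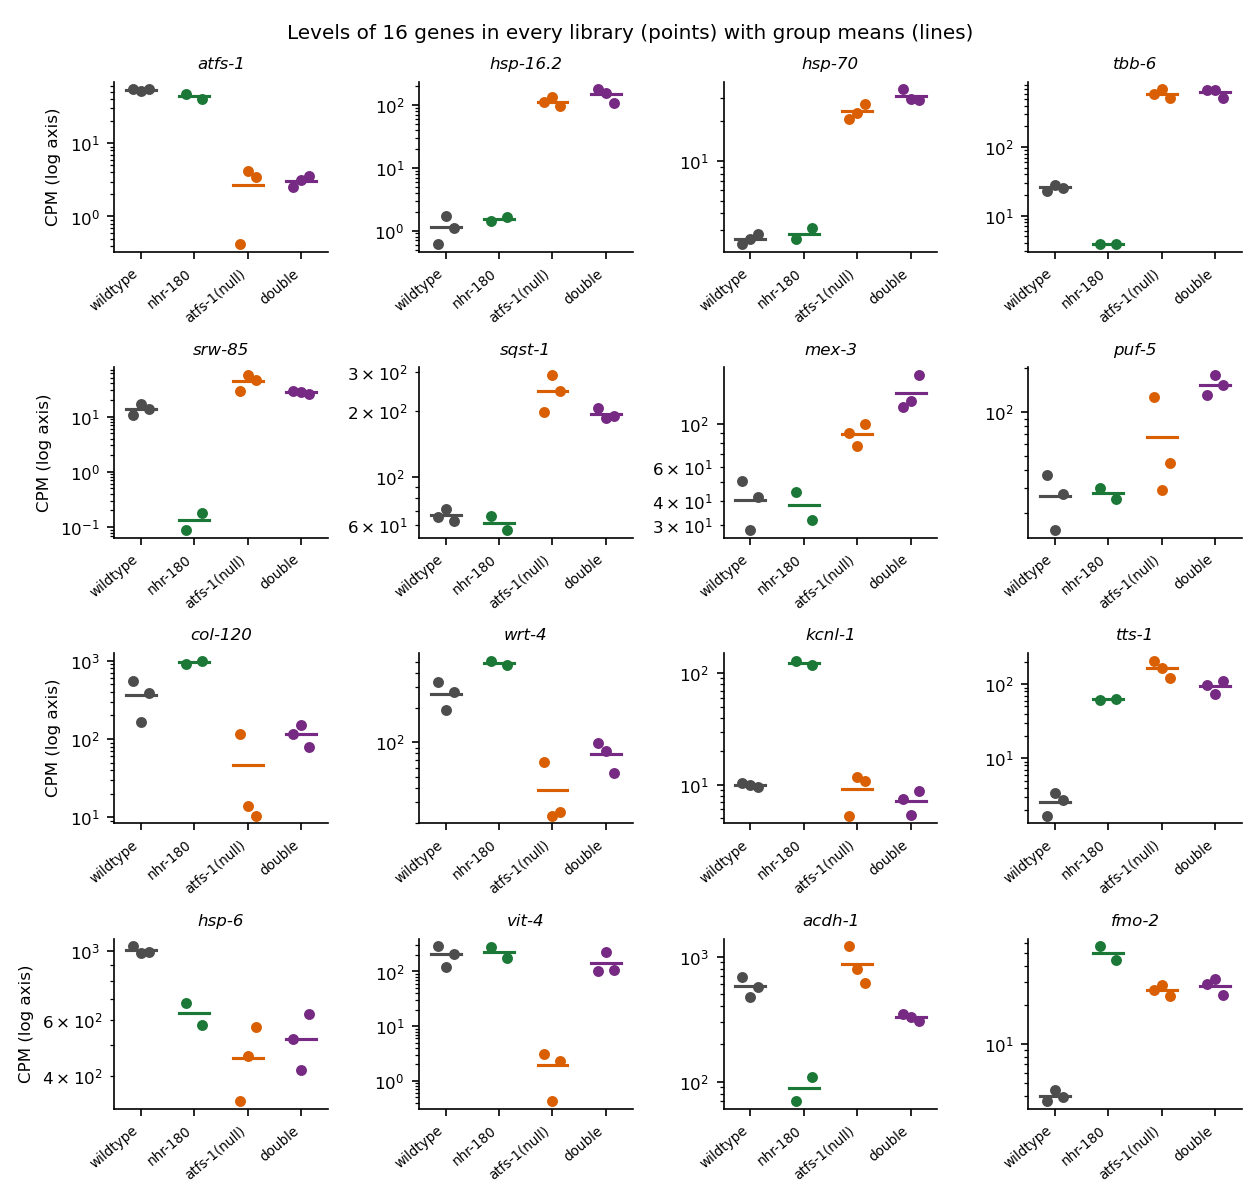
Levels (CPM, log axis) of 16 genes in every library of the 4 genotypes, as points, with lines at the group means. In hsp-16.2, hsp-70 and tbb-6 both groups without atfs-1 stand above both groups with it, whereas kcnl-1 is high in the nhr-180(cmh19) libraries alone.

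Outside the chaperones, and among genes with a class name and a mean of at least 5 CPM, the largest rises were those of srw-85 and tbb-6 (WBGene00006539, chromosome V from 12261531 to 12263368). The gene tbb-6 encodes a beta-tubulin, and in this species its reporter is used to follow a mitochondrial stress pathway that runs through the p38 kinase PMK-3. Its level was 3.84 and 3.89 CPM in the nhr-180 libraries and 682, 673 and 524 CPM in the double mutant, a log2 fold change of 7.34 ± 0.25 (adjusted p = 1.7e-07). The nhr-180 libraries were close to each other and far below every double mutant library. The chemoreceptor gene srw-85 (WBGene00005832, chromosome V from 19429387 to 19431136) held only 6 counts over the nhr-180 libraries, at 0.0893 and 0.181 CPM, and stood at 28.6, 28.1 and 26 CPM in the double mutant. The ratio of summed counts was 205, with an exact 95% counting interval of 94 to 559, which covers counting error only. Among these genes, parg-2 came next, which encodes a poly(ADP-ribose) glycohydrolase, at 0.536 and 0.497 against 32.8, 32.1 and 26.7 CPM (5.87 ± 0.40, adjusted p = 3.32e-05). The nuclear hormone receptor gene nhr-155 went from 1.38 and 1.36 to 36.3, 39 and 25.8 CPM (4.62 ± 0.51, adjusted p = 0.000506). Groups without overlap were a condition for naming these genes. Their calls held whichever of the 5 libraries was left out.

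Other large rises were spread over several functions. The gene far-3, which encodes a fatty acid- and retinol-binding protein, stood at 8.08 and 8.05 CPM in the nhr-180 libraries and 154.5, 175 and 111 CPM in the double mutant (4.19 ± 0.51, adjusted p = 0.000913). The related gene far-4 rose too, from 2 counts over the nhr-180 libraries to 44 over the double mutant (adjusted p = 0.00704), a ratio of 14.3 with a counting interval of 3.72 to 121. The other 6 tested far genes were not called. The exons of far-3 overlap those of far-5, so reads of these genes may be mixed. The cyclic nucleotide-gated channel gene cng-1 rose by 4.6 ± 0.41 and gmd-2, which encodes a GDP-mannose dehydratase, by 3.57 ± 0.57 on the log2 scale. The cytochrome P450 gene cyp-14A5 rose from 14.5 and 12.5 to 151.8, 166 and 91.5 CPM (3.34 ± 0.33, adjusted p = 0.00027). The germ granule gene meg-1 completed the 12 largest rises among genes with a class name and a mean of at least 5 CPM. It stood at 3.26 and 2.03 against 21.1, 30.3 and 25.4 CPM (3.27 ± 0.58, adjusted p = 0.0053). The calls of far-4, gmd-2 and meg-1 were lost without nhr-180 replicate 3, and those of far-3, cng-1 and cyp-14A5 held whichever of the 5 libraries was left out.

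Genes of the mitochondrion, the direct concern of ATFS-1, were called almost only in the lower direction, in shares that lay above the background in some groups and below it in others. The mitochondrial Hsp70 gene hsp-6 stood at 684 and 582 CPM in the nhr-180 libraries and 522, 419 and 628 CPM in the double mutant (-0.28 ± 0.23, adjusted p = 0.431). The mitochondrial Hsp60 gene hsp-60 stood at 438 and 426 against 346, 301 and 519.7 CPM (-0.15 ± 0.26, adjusted p = 0.724). In both genes the groups overlapped and no change was called. Of 18 tested genes of mitochondrial protein quality control (chaperones, proteases, prohibitins and genes of their response), 3 fell (16.7%, against 8.21% of all tested genes) and 15 were not called, with a median of -0.34. The members that fell were trap-1, the mitochondrial Hsp90 gene, from 699.8 and 778 to 464, 374 and 427 CPM (-0.81 ± 0.14, adjusted p = 0.0053), the DnaJ co-chaperone gene dnj-10 (-0.56 ± 0.14, adjusted p = 0.0229), and the heme-handling gene hrg-9 (-1.66 ± 0.19, adjusted p = 0.000604). Among these, hrg-9, which is also counted in the heme and iron list, alone kept its call whichever of the 5 libraries was left out. The call of trap-1 was lost without nhr-180 replicate 3, and that of dnj-10 when either nhr-180 library was left out. Summed over the list, the level was 3069 and 3128 CPM in the nhr-180 libraries and 2323, 2086 and 2656 CPM in the double mutant.

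Other nuclear mitochondrial groups had negative medians on the counts. Of 21 tested import genes 3 fell (14.3%), tin-44 (-0.63 ± 0.14), mppa-1, the gene of a subunit of the mitochondrial processing peptidase (-0.68 ± 0.15) and timm-17B.2 (-0.82 ± 0.25), and the median was -0.30. Of 71 mitochondrial ribosomal protein genes 2 fell, mrps-27 (-0.63 ± 0.13, adjusted p = 0.0106) and mrps-18C (-0.60 ± 0.18, adjusted p = 0.0362), with a median of -0.28 and a negative estimate in 67 members. Of 51 nuclear genes of the respiratory chain and ATP synthase 3 fell and 1 rose, with a median of -0.16. The complex I genes nduf-9 and gas-1 fell, with log2 fold changes of -0.54 ± 0.12 and -0.55 ± 0.14. Of 27 TCA cycle and pyruvate dehydrogenase genes, 4 fell, among them the isocitrate dehydrogenase gene idh-2, from 114.5 and 129.7 to 70.7, 71.4 and 64.8 CPM (-0.82 ± 0.14, adjusted p = 0.00384). Set beside the 8.21% of all tested genes that fell, the shares were higher in the quality control, import and TCA lists (14.8% in the last) and lower in the ribosomal protein (2.82%) and respiratory chain (5.88%) lists. Without nhr-180 replicate 3, no member was called lower in the import, ribosomal protein and TCA lists, and without nhr-180 replicate 2 the counts were 0, 1 and 1. DESeq2 called 3, 4 and 5 members lower, and the fit without atfs-1(null) replicate 1 called 3, 6 and 5. The respiratory chain median was -0.05 without nhr-180 replicate 3 and -0.01 on the TPM values, where the import, ribosomal protein and TCA medians were -0.16, -0.14 and -0.04 against 0.11 over all genes.

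A list of 12 tested genes from the mitochondrial genome had a lower median than any nuclear mitochondrial list, at -0.90. Of these 12, 4 fell (33.3%) and 8 were not called, and all 12 estimates were negative. In total, 14 genes of that genome were tested, and 6 of the 14 (42.9%) were called in either direction. Calls outside the 12 are not described here. The complex I gene nduo-1 stood at 667 and 816 CPM in the nhr-180 libraries and 414, 433 and 337 CPM in the double mutant (-0.91 ± 0.22, adjusted p = 0.0189). The groups did not overlap, and neither did they in nduo-5, at 551 and 529 against 323, 420.1 and 319.9 CPM (-0.61 ± 0.17, adjusted p = 0.0342). The genes nduo-3 (-1.18 ± 0.33) and ndfl-4 (-1.51 ± 0.42) were scarce, at 8.62 and 13.7 and 0.715 and 1.13 CPM in the nhr-180 libraries. Without nhr-180 replicate 2, nhr-180 replicate 3 or double mutant replicate 3, no member of the list was called, and 1 was called without double mutant replicate 1 or wildtype replicate 3. By contrast 7 were called by DESeq2, 6 in a fit of the compared groups only and 9 without atfs-1(null) replicate 1. The median was between -1.17 and -0.68 in these fits and in those that left out each other library. Summed over the list, the level was 9126 and 10387 CPM against 5541, 8689 and 5973 CPM.

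Genes of translation factors and tRNA synthetases that were called rose, in shares not far above that of all tested genes. The synthetase list holds both cytosolic and mitochondrial enzymes. Among 82 genes of cytosolic ribosomal proteins, edgeR's quasi-likelihood test called 0, 0 had an unadjusted p under 0.05, and DESeq2 called 0. Their median was -0.02 on the counts and 0.13 on the TPM values, where 1 member was called higher. Of 40 initiation and elongation factor genes, 5 rose and 35 were not called, with a median of 0.23. Among those that rose were eif-6, a ribosome assembly factor, from 75.5 and 85.9 to 123, 124 and 117 CPM (0.59 ± 0.13, adjusted p = 0.0129), and eif-2Bdelta and eif-2Bbeta, subunits of the exchange factor that recharges eIF2 (0.50 ± 0.13 and 0.59 ± 0.16). The gene efk-1 encodes the kinase that inhibits elongation factor 2, and it rose by 0.58 ± 0.16. Of 32 aminoacyl-tRNA synthetase genes 5 rose, the alanyl enzyme gene aars-2 with 302 and 271 against 448, 408 and 479 CPM (0.64 ± 0.15, adjusted p = 0.0151) and the seryl enzyme gene sars-1 with 0.57 ± 0.14. These are 12.5% and 15.6%, against 10.3% of all tested genes. DESeq2 called 11 factors and 8 synthetases, limma on the TPM values called 14 and 8, with medians of 0.37 and 0.33, and both counts were 0 when either nhr-180 library was left out.

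Genes of protein quality control beyond the cytosolic chaperones were called in both directions. Among 30 autophagy genes, 5 rose (16.7%, against 10.3% of all tested genes) and the other 25 were not called. The p62 homologue gene sqst-1, which encodes the receptor that brings ubiquitinated cargo to autophagosomes, rose from 66.1 and 57.2 to 205, 184 and 189 CPM (1.64 ± 0.18, adjusted p = 0.000464), without overlap and whichever of the 5 libraries was left out. The autophagy genes epg-4 and cup-5 rose less (0.64 ± 0.17 and 0.66 ± 0.18), and 3 members of the list were called without nhr-180 replicate 2, 1 without nhr-180 replicate 3 and 9 on the TPM values. Of 23 endoplasmic reticulum chaperone and unfolded protein response genes, 2 rose (8.7%) and 3 fell (13%). These shares lay near the 10.3% and 8.21% of all tested genes. The endoplasmic reticulum Hsp70 gene hsp-4 was not called, at 489 and 493 against 412, 344 and 468 CPM (-0.27 ± 0.17, adjusted p = 0.3). The calreticulin gene crt-1 fell, with -0.62 ± 0.15, and so did the protein disulfide isomerase gene pdi-3, with -0.46 ± 0.12. The choline kinase gene ckb-2 fell from 24.9 and 30.3 to 13.4, 18.1 and 13.4 CPM (-0.89 ± 0.22, adjusted p = 0.0184). The call of crt-1 was lost without nhr-180 replicate 3, that of ckb-2 when either nhr-180 library or double mutant replicate 1 or 3 was left out, and that of pdi-3 when any 1 of the 5 was.

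Germline genes of the oocyte rose together. Of 25 tested oocyte and female germline genes, 23 rose (92%, against 10.3% of all tested genes), perm-2 and perm-4 were not called, and the median was 1.92. The RNA-binding protein gene mex-3, active in oocytes and early embryos, stood at 44.4 and 31.8 CPM in the nhr-180 libraries and 123, 131 and 179 CPM in the double mutant (1.92 ± 0.28, adjusted p = 0.00217). The oocyte maturation gene oma-1 went from 29.2 and 23.1 to 75.6, 85.6 and 91.2 CPM (1.69 ± 0.30, adjusted p = 0.00546), and spn-4, another RNA-binding protein gene, from 45.1 and 33.4 to 122, 136 and 151 CPM (1.80 ± 0.33, adjusted p = 0.00625). The groups did not overlap in these genes. The yolk receptor gene rme-2 rose from 54.4 and 49.1 to 153, 186 and 232 CPM (1.88 ± 0.43, adjusted p = 0.0151), and the Pumilio-family gene puf-5 from 29.7 and 25.2 to 131, 179.9 and 153 CPM (2.49 ± 0.58, adjusted p = 0.0154). The eggshell layer genes perm-2 and perm-4 stood at 96.4 and 91.8 against 99.7, 128 and 111 CPM and at 136 and 126 against 130.2, 155.4 and 209 CPM. Summed over the list, the level was 1167 and 969.7 CPM in the nhr-180 libraries and 2930.5, 3630.4 and 4261 CPM in the double mutant, against 1269, 598 and 967 CPM in wildtype worms and 2529, 990.1 and 1673 CPM in atfs-1(null). The median of the list was 2.12 without nhr-180 replicate 2 and 1.75 without nhr-180 replicate 3, while 3 members and 1 member, mex-3, were called.

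Genes of DNA replication and the cell cycle also rose, with 20 of 33 tested members called higher (60.6%, against 10.3% of all tested genes). The other 13 were not called, and the median was 0.80. The replicative helicase gene mcm-6 went from 62.1 and 60 to 120.2, 136.99 and 133 CPM (1.09 ± 0.16, adjusted p = 0.00226) and the origin licensing gene cdc-6 from 28 and 27.7 to 49.6, 53.5 and 50.8 CPM (0.88 ± 0.13, adjusted p = 0.00208). Cyclin genes of later phases were among them, cya-1 with 1.02 ± 0.15 and cyb-3 with 1.48 ± 0.28. No library of either group overlapped the other in these genes. Without nhr-180 replicate 2, 8 members were called, and without nhr-180 replicate 3, 5 members, among them mcm-6, cdc-6 and cya-1.

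Few genes of sperm, yolk, body wall muscle, neuropeptides and the intestine were called. Genes of the cuticle, with the adult collagen gene col-19, are described further below. Of 84 sperm genes 2 rose (2.38%) and 3 fell (3.57%), against 10.3% and 8.21% of all tested genes. The median of the sperm genes was 0.14, and their summed level was 3741 and 4103 CPM against 4399.6, 4028 and 5299 CPM. None of the 6 vitellogenin genes, which encode yolk proteins made in the adult intestine, was called by edgeR, 0 had an unadjusted p under 0.05, and DESeq2 called 0. The vitellogenin gene vit-2 stood at 3564 and 2007 CPM in the nhr-180 libraries and 2209, 3432 and 2010.2 CPM in the double mutant (-0.13 ± 0.42, adjusted p = 0.863), with overlap. Of 35 body wall muscle sarcomere genes 2 fell (5.71%), with a median of -0.14, and the summed level was 26183 and 24007 CPM against 19804, 17146 and 27191 CPM. Of 113 neuropeptide genes 2 rose and 2 fell (1.77% each), and of 17 intestine marker genes 1 fell (5.88%). The shares of the 6 vitellogenin and 17 intestine genes rest on few members and cannot be set apart from those of all tested genes. The parts that the germline content of the libraries and the age of the animals within L4 had in the other results were not tested.

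**Figure D3:**
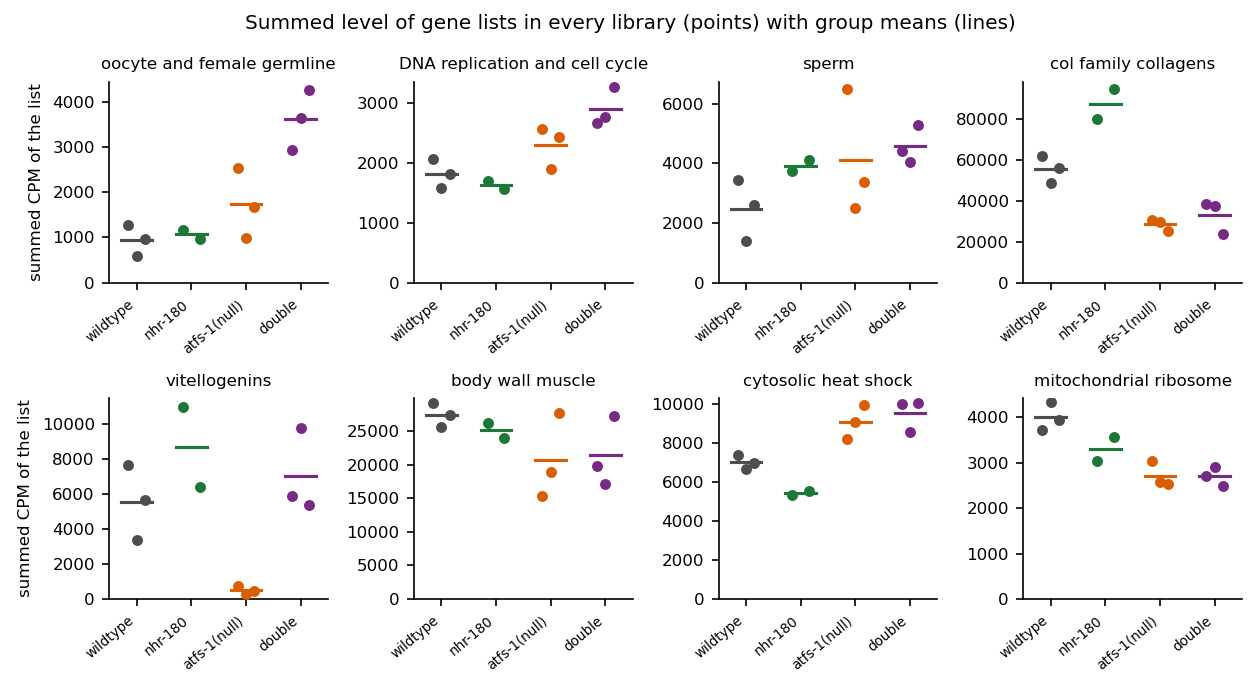
Summed CPM of 8 gene lists in every library (points, lines at group means), with the y axes starting at 0. The oocyte and heat shock sums of the double mutant lie above those of nhr-180(cmh19) without overlap, the col collagen sum lies below, and the vitellogenin sum is low in atfs-1(null) alone, at 773, 301 and 488 CPM.

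Genes that fell were led by those of the cuticle, the collagen-rich outer layer that the hypodermis makes anew at each molt. Of 131 tested collagen genes named col, 57 fell (43.5%), 4 rose (3.05%) and 70 were not called, with a median of -1.25. Among all tested genes 8.21% fell and 10.3% rose. The summed level of the family was 79997 and 94871 CPM in the nhr-180 libraries and 38634, 37390 and 23951 CPM in the double mutant. The gene col-137 went from 278 and 288 to 19.8, 24.5 and 19.4 CPM (-3.73 ± 0.57, adjusted p = 0.00285) and col-162 from 1386 and 1574 to 259.7, 307 and 150.2 CPM (-2.63 ± 0.37, adjusted p = 0.00188). In both, all double mutant libraries lay below both nhr-180 libraries. Wildtype replicates 1, 2 and 3 also lay below them, at 116, 25.9 and 79.3 CPM for col-137 and 921, 461 and 725 CPM for col-162. Levels of col-137 thus varied widely within wildtype, and the part that age within the L4 stage had in these levels was not tested. The genes col-159, col-91 and col-115 fell, with log2 fold changes of -1.90 ± 0.24, -2.24 ± 0.30 and -2.1 ± 0.28, and these 5 genes kept their call whichever of the 5 libraries was left out. The falls of col-120 (-3.07 ± 0.85, adjusted p = 0.0309), col-60 (-2.94 ± 0.88, adjusted p = 0.0407) and col-152 (-2.93 ± 0.82, adjusted p = 0.0318) had larger errors, and each lost its call when any 1 of the 5 libraries was left out. The adult collagen gene col-19 stood at 1049 and 1246 against 303, 477 and 198 CPM and was not called (-1.82 ± 0.63, adjusted p = 0.0674). Of the family, 33 members were called lower without nhr-180 replicate 2, 16 without nhr-180 replicate 3, 37 without double mutant replicate 3, and 88 without atfs-1(null) replicate 1. The collagen genes dpy-4 and dpy-13, which set body shape, fell, with -1.55 ± 0.24 and -1.32 ± 0.24; the call of dpy-13 was lost without nhr-180 replicate 3.

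Genes that act with the collagens at the molt moved in both directions. Of 26 genes of molting enzymes and the apical extracellular matrix, 6 rose (23.1%) and 5 fell (19.2%), against 10.3% and 8.21% of all tested genes. Those that rose were genes of the temporary layer laid down before a new cuticle, fbn-1 (2.23 ± 0.62), let-653 (1.81 ± 0.33), noah-1 (1.05 ± 0.28), sym-1 (0.99 ± 0.27) and lpr-3 (0.92 ± 0.27), and nhr-23 (1.11 ± 0.33), a nuclear receptor gene that drives molting. Those that fell were the astacin protease genes nas-36, from 70.9 and 60.1 to 18.4, 21 and 13.7 CPM (-1.89 ± 0.26, adjusted p = 0.00184), nas-6 and nas-7 (-1.09 ± 0.27 and -1.38 ± 0.28), the protease inhibitor gene bli-5 (-1.64 ± 0.28) and mlt-10 (-1.39 ± 0.24). When either nhr-180 library was left out none of the 6 rises was called, nor the falls of nas-6 and nas-7, while the falls of nas-36, bli-5 and mlt-10 kept their call. Of 68 hedgehog-related and patched-related genes, which act in the hypodermis and in molting, 18 fell (26.5%) and 4 rose (5.88%), with a median of -0.50. The gene wrt-4 stood at 511 and 468 CPM in the nhr-180 libraries and 98.9, 83.8 and 54.6 CPM in the double mutant (-2.63 ± 0.44, adjusted p = 0.00385). The genes grl-16, grd-11 and grd-15 fell, with -2.45 ± 0.34, -2.17 ± 0.31 and -1.60 ± 0.19, and like wrt-4 they kept their call whichever of the 5 libraries was left out. Without nhr-180 replicate 2, 6 members of the list were called lower, without nhr-180 replicate 3, 7, and without double mutant replicates 1, 2 and 3, 12, 9 and 11.

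Among genes with a class name and a mean of at least 5 CPM, the largest fall was that of kcnl-1, which encodes a potassium channel of the calcium-activated SK type. Its level was 129.7 and 118 CPM in the nhr-180 libraries and 7.4, 5.36 and 8.84 CPM in the double mutant (-4.10 ± 0.30, adjusted p = 6.46e-05), beside 10.5, 9.9 and 9.6 CPM in wildtype worms and 5.29, 11.7 and 10.7 CPM in atfs-1(null). The nhr-180 libraries stood alone above the other 9. Its tested neighbours fell as well, which was noticed after their values were seen. The genes oac-1, kcnl-1, nlp-25 and grsp-1 follow each other on chromosome V from 19550999 to 19612150, and all 4 fell, with log2 fold changes of -1.39 ± 0.22 for oac-1, -2.09 ± 0.30 for nlp-25 and -1.73 ± 0.26 for grsp-1. The tested genes next to this stretch, Y43F8B.20 (-0.11) and nlp-26 (0.18), were not called. Each of the 4 was higher in both nhr-180 libraries than in any library of the other genotypes. On the same chromosome srw-85, from 19429387 to 19431136, was instead lower in both nhr-180 libraries than in any library of the other genotypes. Whether strain differences linked to an allele play a part in these genes was not tested. Called genes made up 21.2% of the tested genes of chromosome V, on which both targeted genes lie, 26.1% of the 211 within 1 Mb of nhr-180 and 19.7% of the 396 within 1 Mb of atfs-1, against 18.5% of all tested genes.

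Genes of enzymes were also among the 12 largest falls so defined. The aspartyl protease gene asp-8 went from 188 and 212 to 22.2, 24.1 and 14.8 CPM (-3.30 ± 0.29, adjusted p = 0.000148), and the astacin gene nas-27 from 40.6 and 35.5 to 6.93, 6.39 and 5.79 CPM (-2.58 ± 0.29, adjusted p = 0.000576). The lipase-related gene lips-6 stood at 18.8 and 15.3 against 2.03, 2.6 and 1.32 CPM (-3.09 ± 0.31, adjusted p = 0.00027), and decr-1.1, which encodes a dienoyl-CoA reductase of fatty acid breakdown, at 19.6 and 21 against 3.42, 4.33 and 2.26 CPM (-2.60 ± 0.34, adjusted p = 0.00128). No double mutant library reached the lower nhr-180 library in any of them, which was a condition for naming them. Their calls held whichever of the 5 libraries was left out.

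Genes of lipid breakdown fell more often than they rose. Of 63 genes of fatty acid activation and beta-oxidation, 17 fell (27%), 3 rose (4.76%) and 43 were not called, with a median of -0.29. Among all tested genes 8.21% fell and 10.3% rose. The enoyl-CoA hydratase gene ech-9 went from 3.39 and 3.75 to 0.519, 0.701 and 0.706 CPM (-2.47 ± 0.27, adjusted p = 0.000464) and the acyl-CoA dehydrogenase gene acdh-9 from 92.9 and 98.9 to 49, 47.6 and 45.8 CPM (-1.01 ± 0.13, adjusted p = 0.00151). Genes of peroxisomal beta-oxidation, which also shortens the side chains of the ascaroside pheromones, were among those that fell. The thiolase gene daf-22 went from 159.9 and 181 to 104, 106 and 87.8 CPM (-0.78 ± 0.14, adjusted p = 0.00619), and dhs-28 and maoc-1, which act just before it, fell, with -0.67 ± 0.17 and -0.76 ± 0.19. Without nhr-180 replicate 2, 9 members of the list were called lower and without nhr-180 replicate 3, 6 members, among them ech-9 and acdh-9. The call of daf-22 was lost without nhr-180 replicate 3, and those of dhs-28 and maoc-1 when either nhr-180 library was left out. Fatty acid desaturase genes split, with fat-7 at 8.53 and 8.59 against 1.99, 3.13 and 1.32 CPM (-1.99 ± 0.31, adjusted p = 0.00323), fat-5 at 9.11 and 8.5 against 19.8, 18.3 and 18.4 CPM (1.1 ± 0.27, adjusted p = 0.018) and fat-2 at 0.49 ± 0.14. The calls of fat-5 and fat-2 were lost when either nhr-180 library was left out.

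The gene acdh-1 was among the 3 of that list that rose. It encodes the acyl-CoA dehydrogenase that begins the propionate shunt, a breakdown route used when vitamin B12 is scarce. Its level was 69.5 and 108 CPM in the nhr-180 libraries, 346, 327 and 307 CPM in the double mutant and 687, 471 and 572 CPM in wildtype (1.88 ± 0.30 for the double mutant over nhr-180, adjusted p = 0.00343). The double mutant thus lay above nhr-180 and below wildtype without overlap. A later enzyme of the shunt, hphd-1, rose from 151 and 158 to 259, 222 and 268 CPM (0.69 ± 0.16, adjusted p = 0.0151), and the other 11 tested propionate genes were not called. The related gene acdh-2 held 2 counts over the nhr-180 libraries and stood at 3.72, 2.8 and 3.67 CPM in the double mutant, a ratio of summed counts of 75.2 with a counting interval of 20.6 to 625. In the methionine cycle, the adenosylhomocysteinase gene ahcy-1 went from 1036 and 1217 to 2285, 1816 and 2109 CPM (0.88 ± 0.15, adjusted p = 0.00522), and the nuclear receptor gene nhr-114, which responds to low methionine-cycle flux, from 32.9 and 39.4 to 59, 55.1 and 63 CPM (0.71 ± 0.14, adjusted p = 0.00741). The calls of hphd-1, ahcy-1 and nhr-114 were lost without nhr-180 replicate 2, and that of hphd-1 also without nhr-180 replicate 3.

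Genes of heme and iron handling were called in the lower direction only. Of 14 tested members 6 fell (42.9%, against 8.21% of all tested genes) and 8 were not called, with a median of -0.73. The gene hrg-2 stood at 13.8 and 17.2 CPM in the nhr-180 libraries and 3.25, 3.5 and 2.54 CPM in the double mutant (-2.32 ± 0.21, adjusted p = 0.000159). For hrg-3, which encodes a heme carrier that leaves the intestine for other tissues, the levels were 31.1 and 33.7 against 7.49, 12.16 and 10.8 CPM (-1.68 ± 0.28, adjusted p = 0.00379), and for hrg-9, which acts in heme transport within cells, 6.39 and 7.55 against 2.08, 2.39 and 2.12 CPM. The groups stood well apart in these genes, and their calls held whichever of the 5 libraries was left out. The heme importer genes hrg-1 and hrg-4 and the metal transporter gene smf-3 fell too, with -0.90 ± 0.16, -0.83 ± 0.19 and -0.72 ± 0.22, and these calls were lost without nhr-180 replicate 3, that of smf-3 also without any 1 of the other 4 libraries. The median of the list was -0.36 on the TPM values, on which 5 members were called.

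**Figure D4:**
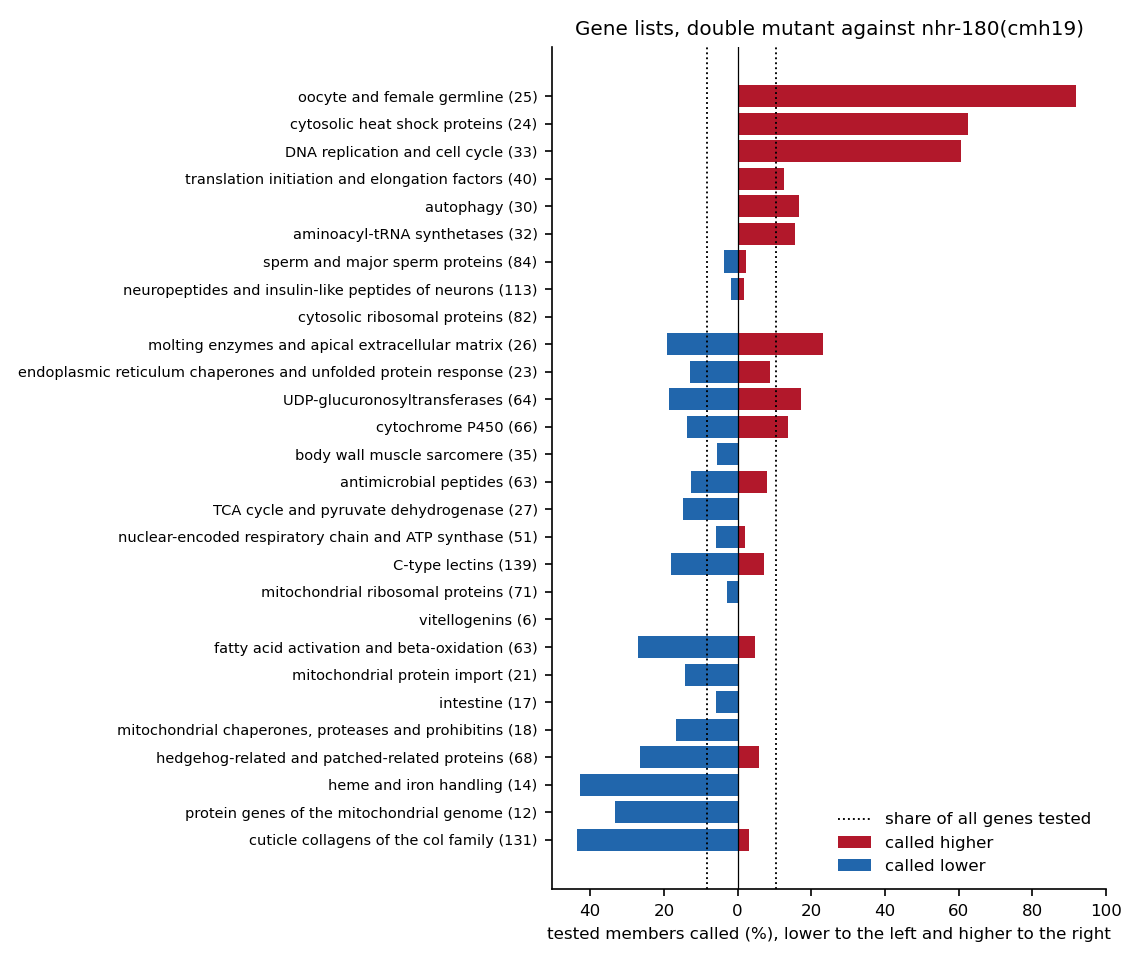
Share of the tested members of 28 gene lists (number tested in brackets) called higher (red, to the right) or lower (blue, to the left) in the double mutant, with dotted lines at the shares over all tested genes, 10.3% and 8.21%. Oocyte, heat shock and DNA replication genes stand far right of the line, and col collagens and heme genes far left.

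Genes of defence and detoxification were called in both directions. Over all tested genes 10.3% rose and 8.21% fell. Of 139 C-type lectin genes 10 rose (7.19%) and 25 fell (18%), and of 63 antimicrobial peptide genes 5 rose (7.94%) and 8 fell (12.7%). The lysozyme gene lys-7 rose from 41.8 and 40.2 to 172, 169 and 206 CPM (2.15 ± 0.18, adjusted p = 0.000148), whereas lys-3 fell from 3.22 and 3.53 to 1.17, 1.73 and 1.69 CPM (-1.14 ± 0.23, adjusted p = 0.00928). The antimicrobial peptide genes cnc-4 and nlp-29 rose (1.39 ± 0.22 and 1.66 ± 0.39) and nlp-33 fell (-1.69 ± 0.23). Of 64 UDP-glucuronosyltransferase genes, which couple sugars to foreign compounds, 11 rose (17.2%) and 12 fell (18.8%). The gene ugt-62 went from 201 and 202 to 57.7, 67.2 and 54 CPM (-1.76 ± 0.14, adjusted p = 8.95e-05) and ugt-53 from 6.48 and 6.56 to 19.9, 19.9 and 20.3 CPM (1.62 ± 0.15, adjusted p = 0.000172), in both cases with narrow groups that lay apart. Of 66 cytochrome P450 genes 9 rose (13.6%) and 9 fell (13.6%). Without nhr-180 replicate 3, calls in either direction were 0 and 6 for lectins, 1 and 2 for peptides, 6 and 4 for UDP-glucuronosyltransferases, and 2 and 2 for cytochrome P450 genes. The calls of lys-3 and nlp-29 were lost there, and that of nlp-29 also without nhr-180 replicate 2.

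Of 18 antioxidant genes 1 rose and 1 fell, 5.56% each, against 10.3% and 8.21% of all tested genes. The extracellular superoxide dismutase gene sod-4 went from 13.6 and 17.9 to 38.9, 38.9 and 34.6 CPM (1.25 ± 0.18, adjusted p = 0.00197), without overlap between the groups, and its call held whichever of the 5 libraries was left out.

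The same loss in animals without the nhr-180 mutation, atfs-1(null) against wildtype, shares no library with this comparison. There, 2291 genes (14.3%) were called, 1207 higher (7.54%) and 1084 lower (6.77%). Of the 1647 genes that rose in nhr-180 animals, 519 also rose there, 31.5% of these and 43% of the genes that rose there. Of the 1314 that fell, 479 also fell there, 36.5% of these and 44.2% of those that fell there. Opposite calls were made for 6 and 33 genes. The estimate had the same sign in 92.6% and 85.4% of the genes called here. Across the 16013 genes the log2 fold changes correlated at a Pearson r of 0.6 and a Spearman rho of 0.5; genes are not independent replicates, and both comparisons come from 1 fit. In atfs-1(null) over wildtype, 598 genes were called higher and 534 lower without wildtype replicate 3, and 739 and 711 without wildtype replicate 1.

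Heat shock genes rose in both backgrounds. In atfs-1(null) over wildtype, hsp-16.2 rose by 6.62 ± 0.35, hsp-16.41 by 7.52 ± 0.35 and hsp-70 by 3.20 ± 0.17, and the difference of the effects was not called for any of them (-0.03 ± 0.44, -0.39 ± 0.47 and 0.26 ± 0.25). The heat shock list had 11 members that rose there, and no member was called for the difference by edgeR's interaction test, with 3 at an unadjusted p under 0.05 and 0 called by DESeq2. Oocyte genes were called in 23 members here and 2 there, with medians of 1.92 and 1.03. The difference itself was not called for any of the 25 oocyte genes, with 4 at an unadjusted p under 0.05 and 0 called by DESeq2. In replication genes, 20 rose here and 2 there, and 0 of 33 were called for the difference, with 11 at an unadjusted p under 0.05 and 2 called by DESeq2. The 41 mitochondrial ribosomal protein genes that fell in atfs-1(null) compare with 2 here, at medians of -0.55 and -0.28. By the interaction test 0 of 71 differed, 11 had an unadjusted p under 0.05, and DESeq2 called 2. In the summed level of this list, the nhr-180 libraries, at 3027 and 3564 CPM, lay below the wildtype libraries, at 3719, 4328 and 3944 CPM. The double mutant, at 2708, 2906 and 2481 CPM, overlapped atfs-1(null), at 3026, 2576 and 2538 CPM. Likewise hsp-6 stood at 1032, 980.2 and 994 CPM in the wildtype libraries and 331, 461 and 573 CPM in those of atfs-1(null), with a log2 fold change of -1.14 ± 0.21, and the nhr-180 libraries lay between them. The difference of the effects on hsp-6 was not called (0.86 ± 0.31, adjusted p = 0.239).

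The effect of losing atfs-1 differed between the backgrounds for 182 genes (1.14%) by the interaction test. In 44 (0.275%) it was higher in nhr-180 animals and in 138 (0.862%) lower. Of the 138, 112 rose in atfs-1(null) over wildtype, and 73 of these were not called in nhr-180 animals. In 136 of the 138 the mean of the nhr-180 libraries lay above that of wildtype. Of the 44, 28 fell in atfs-1(null), and 20 of these were not called in nhr-180 animals. The test that chose the 44 and 138 genes uses these same libraries, so such directions follow in part from that choice. The numbers of 44 and 138 genes moved with several libraries. They were 187 and 269 without atfs-1(null) replicate 1, 10 and 55 without nhr-180 replicate 2, 13 and 54 without nhr-180 replicate 3, and 12 and 56 without wildtype replicate 3, and lay between 19 and 33 and between 64 and 122 without 1 of the others. DESeq2 called 200 and 288.

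**Figure D5:**
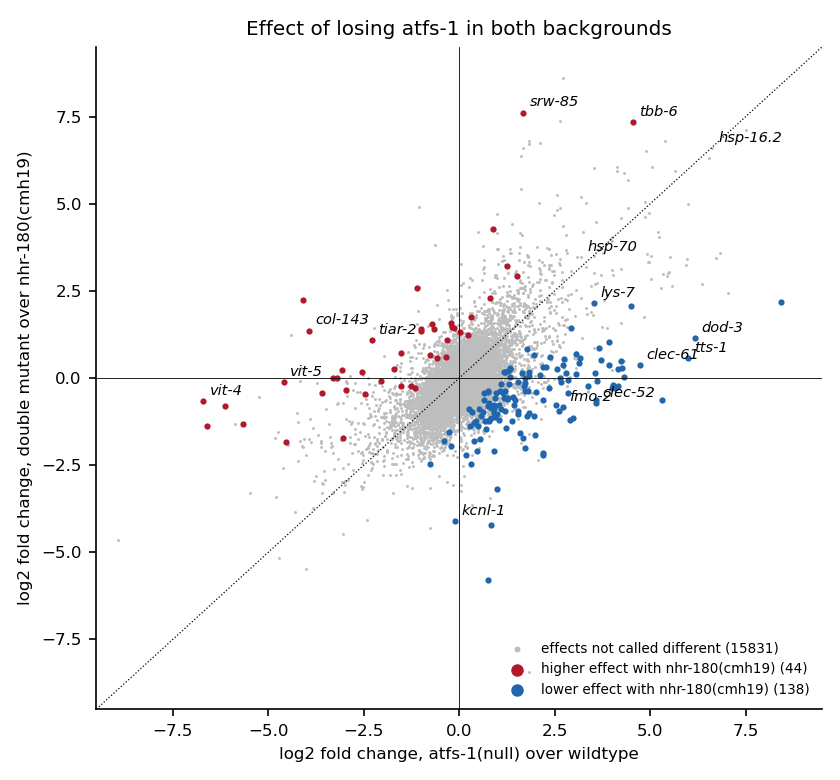
Log2 fold change of losing atfs-1 with the nhr-180(cmh19) mutation (y axis) against that without it (x axis) for 16013 genes, with the dotted line where both are equal. The 44 genes with a higher effect in nhr-180 animals (red) and the 138 with a lower one (blue) lie off this line; tts-1 and dod-3 lie near 6 on the x axis and near 0.58 and 1.14 on the y axis.

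Genes with higher levels in nhr-180 than in wildtype animals lead the lower group. The long non-coding RNA tts-1, which binds ribosomes in long-lived mutants, stood at 1.69, 3.42 and 2.7 CPM in wildtype worms and 207, 165 and 122 CPM in atfs-1(null). In the nhr-180 libraries it stood at 60.8 and 63.9 CPM and in the double mutant at 96, 73.8 and 109.9 CPM, a change that was not called (0.58 ± 0.28). The difference of the effects was -5.40 ± 0.39 (adjusted p = 0.000113). For the flavin monooxygenase gene fmo-2 the levels were 3.61, 4.39 and 3.9 in wildtype, 26, 28.4 and 23.5 in atfs-1(null), 56.5 and 44.7 in nhr-180 and 29, 31.7 and 24 CPM in the double mutant. Loss of atfs-1 thus raised fmo-2 in one background and lowered it in the other (2.71 ± 0.17 and -0.84 ± 0.17), with a difference of -3.55 ± 0.24 (adjusted p = 8.06e-05). The fall in nhr-180 animals lost its call without nhr-180 replicate 2. For dod-3, named as a target downstream of the insulin-regulated factor DAF-16, the difference was -5.03 ± 0.45 (adjusted p = 0.000507), with 0.375, 0.555 and 0.55 CPM in wildtype worms, 53.2, 32 and 22.7 CPM in atfs-1(null), 7.41 and 6.56 CPM in nhr-180 and 14.8, 15 and 16.46 CPM in the double mutant. It rose in nhr-180 animals (1.14 ± 0.31, adjusted p = 0.0267), a call that was lost when any 1 of the 5 libraries was left out. The lectin genes clec-61 and clec-52 differed by -4.37 ± 0.53 and -4.31 ± 0.53, and in nhr-180 animals their changes were not called.

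Genes of the higher group include yolk protein genes. The levels of vit-4 were 286, 121 and 208 CPM in wildtype worms and 3.15, 0.424 and 2.34 CPM in atfs-1(null), against 283 and 177 CPM in nhr-180 and 101, 228 and 107 CPM in the double mutant. The difference of the effects was 6.03 ± 0.88 (adjusted p = 0.00739). Likewise vit-5 fell in atfs-1(null) over wildtype (-4.6 ± 0.55) and was not called in nhr-180 animals (-0.11 ± 0.53), a difference of 4.49 ± 0.77 (adjusted p = 0.0204). Of 6 vitellogenin genes 3 were called for the difference; vit-3, vit-4 and vit-5 are near-identical, so their reads may be shared. The calls of vit-4, vit-5 and vit-6 for the difference were lost when either nhr-180 library was left out, that of vit-5 also without wildtype replicate 3, and that of vit-6 without most of the libraries. Collagen gene col-143 stood at 21.3, 23.4 and 21.1 CPM in wildtype worms, 2.64, 0.763 and 0.867 in atfs-1(null), 20.1 and 23.4 in nhr-180 and 43.9, 89.5 and 33.4 CPM in the double mutant, with a difference of 5.29 ± 0.68 (adjusted p = 0.00372). The RNA-binding protein gene tiar-2 was low in the nhr-180 libraries, at 4.11 and 3.26 CPM against 37.3, 33.5 and 33.7 CPM in wildtype, and stood at 6.62, 6.22 and 10.5 CPM in the double mutant. Its difference was 3.36 ± 0.39 (adjusted p = 0.00215), and its rise in nhr-180 animals (1.08 ± 0.29, adjusted p = 0.0272) was lost when either nhr-180 library or double mutant replicate 3 was left out.

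Among the large rises, the effect was larger in nhr-180 animals for srw-85 and tbb-6. The levels of srw-85 in wildtype were 10.8, 16.7 and 13.6 CPM and in atfs-1(null) 28.9, 56.3 and 46.5 CPM, and the difference of the effects was 5.94 ± 0.53 (adjusted p = 0.000507). For tbb-6 they were 23.2, 28.4 and 25.6 CPM in wildtype worms and 589, 693 and 510.1 CPM in atfs-1(null), with a difference of 2.80 ± 0.25 (adjusted p = 0.000507). In both genes the nhr-180 libraries stood below every wildtype library, and the groups without atfs-1 overlapped in tbb-6, while all atfs-1(null) libraries lay above the double mutant in srw-85. For acdh-1, which was also lower in nhr-180 than in wildtype, the difference of the effects was not called (1.29 ± 0.38, adjusted p = 0.163). The lysozyme gene lys-7 went the other way, from 16, 17.4 and 16.3 CPM in wildtype to 234, 171 and 170.0 CPM in atfs-1(null), so that its rise was smaller in nhr-180 animals (difference -1.38 ± 0.23, adjusted p = 0.0167), a call that was lost without nhr-180 replicate 2 or 3, double mutant replicate 1 or 2, or wildtype replicate 1 or 3.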

How the data were processed

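The authors deposited a table of unnormalised counts per gene and a table of TPM (scaled for gene length and depth) for the 11 libraries, per the file headers. The submitters' processing notes name featureCounts 1.5.2. No aligner, annotation release or strand setting is named there, so counts of overlapping and antisense genes are uncertain. Among genes named in the report, exons of vit-2, cng-1, far-3, col-143, mppa-1, tin-44, mrps-27, gas-1, nduo-1, ndfl-4, nduo-3, idh-2, eif-6, eif-2Bdelta, cup-5, col-159, col-115, bli-5, mlt-10, grd-15, grd-11, cya-1, fat-5, hrg-3, sod-4, crt-1, hsp-17, hsp-90, perm-2, fbn-1, sym-1, nas-7, nduo-5, dhs-28 and maoc-1 overlap those of another tested gene. Positions are from the WBcel235 annotation.

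Counts were filtered with filterByExpr, scaled by TMM and fitted with edgeR 4.0.16 (R 4.3.3) in 1 quasi-likelihood model of all 11 libraries with 1 mean per genotype, with Benjamini-Hochberg adjustment over all 16013 genes and calls at an adjusted p under 0.05. Standard errors are the log2 fold change divided by the square root of the F statistic. The common biological coefficient of variation was 21.7%. Total counts of the 11 libraries were between 20860822 and 22921602. Alternatives used DESeq2 1.42.0 and limma 3.58.1 on log2(TPM + 1). The scripts were tested on simulated data with 200 changed genes. For the double mutant against nhr-180, 21% of 2-fold and 89% of 4-fold changes were recovered, and 7.56% of the calls were false. For the interaction test these values were 5%, 60% and 13.3%, so a difference that was not called may still be present.

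The comparison, gene lists and named genes were chosen with earlier results of these data known. The rule took the 12 largest rises and falls among non-overlapping called genes with a class name and a mean of at least 5 CPM, up to 3 genes per list by adjusted p, the 5 largest interaction coefficients each way, and the targets and common stress reporters. Outside it, and chosen after their values were seen, are hsp-16.49, F44E5.4, F44E5.5, hsp-43, hsp-17, hsp-90, hsf-1, hsp-110, hsp-1, dnj-12, stip-1, puf-5, rme-2, perm-2, perm-4, fbn-1, let-653, nhr-23, noah-1, sym-1, lpr-3, nas-6, nas-7, oac-1, grsp-1, lgg-1, lgg-2, tomm-70, nlp-29, nduo-5, smf-3, hrg-1, hrg-4, cyb-3, efk-1, daf-22, dhs-28, maoc-1 and far-4.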

Additional observations from a re-analysis of the deposited data

Results flagged for a closer look

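The effect of losing atfs-1 differed between the nhr-180 and the wildtype background, by the interaction test of edgeR, in 44 genes that were higher and 138 that were lower with nhr-180(cmh19). Differences are given on the log2 scale. Among genes named for their change in the double mutant, the higher ones were srw-85 (5.94), tbb-6 (2.80) and tiar-2 (3.36), with the yolk protein genes vit-4 (6.03), vit-5 (4.49) and vit-6 (3.17), the collagen gene col-143 (5.29) and tomm-70 (0.86), a gene of the mitochondrial import receptor. In vit-4, vit-5, vit-6, col-143 and tomm-70 the change in nhr-180 animals was not called, while each fell in atfs-1(null) over wildtype.

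Lower values were led by tts-1 (-5.40), dod-3 (-5.03), the lectin genes clec-61 (-4.37) and clec-52 (-4.31), kcnl-1 (-3.99) and fmo-2 (-3.55). The other defence and digestion genes were nlp-25 (-3.01), the protease gene asp-12 (-2.14) and the lysozyme genes lys-3 (-1.96) and lys-7 (-1.38). Metabolic genes were ech-9 (-2.77) and ckb-2 (-1.98), and oac-1 (-1.67), next to kcnl-1, was among them. The autophagy genes lgg-1 (-1.15) and lgg-2 (-1.02), which encode the ubiquitin-like proteins of the autophagosome membrane, rose in atfs-1(null) by 0.75 ± 0.16 and 1.18 ± 0.14, and in nhr-180 animals their changes were not called (-0.40 ± 0.17 and 0.16 ± 0.15). The differences for srw-85, tbb-6, tts-1, fmo-2, kcnl-1, col-143, tiar-2, dod-3, clec-61, clec-52, nlp-25 and ech-9 were called under all 20 alternatives that could be fitted for them. The others were lost under at least 1.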

How the results depend on the processing

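Counts of called genes moved by more than 1.5 times under several alternatives, and the cause was not tested unless the setting itself is one of fewer samples or a larger fold. Against 1647 genes higher and 1314 lower in the double mutant, leaving out 1 of the 11 libraries at a time gave 186 to 2280 and 251 to 2052. A test against a minimum fold of 1.5 gave 289 and 293, limma on log2(TPM + 0.1) gave 832 lower, and leaving out wildtype replicate 2 with atfs-1(null) replicate 1 gave 2256 lower. The 44 and 138 genes of the interaction became 10 to 187 and 54 to 269 without 1 library, 200 and 288 by DESeq2, 14 and 67 with the minimum fold, and 221 and 261 without the pair of libraries. The 1207 and 1084 genes of atfs-1(null) over wildtype became 598 to 1399 and 534 to 1316 without 1 library, 388 and 288 with the minimum fold, and 596 and 565 in a fit of the compared groups only. DESeq2 size factors kept all of these counts within 1.5 times.

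Replicate numbers were not taken to pair the libraries. Deviations of same-numbered double mutant and nhr-180 libraries correlated at -0.248 and -0.285, and those of atfs-1(null) and wildtype at 0.072, 0.362 and 0.026, where replicate 3 of atfs-1(null) correlated better with another number. With the replicate block, 1387 genes were higher and 1319 lower in the double mutant, 22 and 100 differed between backgrounds, and 1172 and 1092 were called in atfs-1(null).

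Estimates reversed for 3 yolk protein genes that were not called. For vit-2 the value was 0.03 in the 3 TPM fits, and it spanned -0.48 to 0.35 over the fits that left out 1 library, with 0.02 without double mutant replicate 3. For vit-5 it was 0.00 in the TPM fits, and -0.53 to 0.32 without 1 library, positive without nhr-180 replicate 2 and without replicate 1 (0.01) or 3 (0.10) of the double mutant. For vit-6 it was -0.76 to 0.03, positive without nhr-180 replicate 2. Depth limits low genes such as hsp-16.49, far-4 and srw-85, whose nhr-180 libraries hold few counts. With 2 nhr-180 libraries, calls of single genes rest on the shared estimate of the spread.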
